A study of Mus musculus with 38 samples.

Results

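The 10 genes described here are epithelial adhesion and keratin genes: Cdh1, Epcam, Krt8, Krt18, Krt19, Spint1, St14, Ovol2, Grhl2 and Esrp1. They were chosen by name as genes of one theme, and all 10 were found among the 35976 genes of the time course table, the 37108 genes of the table of factor sets and the 20695 genes of the single-cell table. The question they address is when, and in which cells, fibroblasts take on epithelial transcripts while they are reprogrammed.

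The starting cells were mouse embryonic fibroblasts (MEFs) of embryonic day 13.5, from mice carrying an Oct4-GFP reporter allele. Retroviral vectors delivered Jdp2, Glis1, Esrrb and Sall4 (JGES), or subsets of them with or without Oct4 (JGE, JGEO, JGESO). Other cells received a single form of SALL4 alone, and iCD3 medium was used for their induction. JGES cells received virus for 2 days before day 0, in medium with serum per the study's methods. The medium was then replaced with iCD3, and BMP4, a morphogen of the TGF-beta family, was added at 10 ng/ml (BMP4+) or left out (BMP4-). In JGES cells, time since day 0 and the change of medium therefore cannot be told apart. SALL4-delN12 lacks the 12 N-terminal residues through which SALL4 recruits the NuRD chromatin remodelling complex, and neither SALL4-WT nor SALL4-delN12 cells received BMP4. The series held 23 bulk RNA libraries, 2 single-cell libraries, 9 ATAC-seq libraries and 4 CUT&Tag libraries. Each condition was represented by 1 library, so no comparison below has a replicate check or a p-value, and every difference compares 2 libraries. In bulk libraries, fewer cells of a type and less RNA per cell cannot be told apart.

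Day 0 was not untouched MEF. The JGES day 0 library already held Sall4 at 650.4 FPKM (fragments per kilobase of transcript, scaled to the mapped fragments of a library), Jdp2 at 374.8 FPKM and Esrrb at 240.4 FPKM. Glis1, although delivered, stood between 0 and 1.13 FPKM in the JGES libraries. Judged from the steps between low FPKM values, the SALL4-alone libraries held 5.03 to 6.55 times the fragments of JGES day 0, and the JGES libraries held 0.881 to 1.07 times. A value of 0 in a JGES library therefore rests on fewer fragments than a value of 0 in a SALL4-alone library.

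Epithelial cells hold to each other through E-cadherin, the product of Cdh1, and through EpCAM, and their cytoplasm carries keratin filaments. Simple epithelia pair the type II keratin of Krt8 with a type I keratin, of Krt18 or Krt19, since a keratin filament needs one of each type. Spint1 encodes HAI-1, the membrane-bound inhibitor of matriptase, which St14 encodes. Ovol2 and Grhl2 are transcription factors that maintain epithelial transcripts and oppose mesenchymal ones, and Esrp1 directs epithelial splicing. Fibroblasts entering reprogramming pass through a mesenchymal-to-epithelial transition, and in the mesenchymal state repressors of the Snail and ZEB families bind CACCTG boxes (E-boxes) in epithelial promoters.

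Promoter sequence is shown for 2 members, Epcam and Krt18, which hold such a box upstream of the start site and have an accessible region near it in at least one library. The sequences are from RefSeq (GRCm38.p6, the same assembly as mm10), read 5′ to 3′ on the gene's strand, and capitals mark CACCTG on either strand, the reverse strand reading CAGGTG. Epcam is shown for chr17:87635729-87635978 on the plus strand, the 250 bases before its start, and Krt18 for chr15:102027966-102028179 on the plus strand.
Epcam: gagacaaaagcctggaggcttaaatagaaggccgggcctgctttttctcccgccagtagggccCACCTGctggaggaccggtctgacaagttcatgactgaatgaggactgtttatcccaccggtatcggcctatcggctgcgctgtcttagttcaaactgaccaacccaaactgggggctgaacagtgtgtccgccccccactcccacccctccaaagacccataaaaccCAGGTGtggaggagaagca
Krt18: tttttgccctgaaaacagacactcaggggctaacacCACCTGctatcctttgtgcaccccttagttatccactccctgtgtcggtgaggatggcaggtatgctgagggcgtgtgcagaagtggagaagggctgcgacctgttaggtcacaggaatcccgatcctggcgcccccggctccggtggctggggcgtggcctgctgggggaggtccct

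Relative to the RefSeq start site, the Epcam boxes began at -187 and -19 and the Krt18 box at -214. The 5′ end of Krt18 in the GENCODE M21 annotation, from which the peaks below are measured, lay 36 bp away from its RefSeq start. The windows of Spint1 and Ovol2 did not hold these letters. The Ovol2 window, chr2:144331313-144331612, does not reach its GENCODE 5′ end, chr2:144332146, so the sequence at that end was not read. CACCTG on either strand was found in 20.2% of 32851 promoter windows of 300 bases (250 before to 50 after the start), and 2 or more copies, as in Epcam, were found in 2.88%. These matches are a description of letters, not of binding. Promoter sequences of Cdh1, Krt8, Krt19, St14, Grhl2 and Esrp1 are not shown.

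In JGES cells without BMP4, all 10 members passed 1 FPKM by day 5, in an order that began with Cdh1 and the keratins and ended with Ovol2 and Esrp1. Cdh1 stood at 10.8 FPKM at day 0 and at 63.0, 56.1, 38.6 and 43.9 FPKM at days 1, 3, 5 and 7. It was therefore high from the first day and somewhat lower afterwards. Epcam was listed at 0 at day 0 and stood at 2.36, 5.53, 25.2 and 40.1 FPKM at days 1, 3, 5 and 7. Unlike Cdh1, it was higher at each successive day, so that the 2 adhesion genes were first high on different days.

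The keratins without BMP4 followed neither of these courses. Krt8 stood at 3.16 FPKM at day 0 and at 23.9, 6.13, 9.07 and 8.02 FPKM at days 1, 3, 5 and 7. Krt18 stood at 18.2 FPKM at day 0 and at 41.8, 24.2, 29.9 and 48.2 FPKM afterwards. Krt19, a type I keratin that also marks progenitor epithelia, stood at 39.4 FPKM at day 0 and at 163.1, 88.6, 36.7 and 38.5 FPKM afterwards. All 3 keratins were higher at day 1 than at day 0 and lower at day 3 than at day 1.

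The protease pair and the nuclear regulators came later in BMP4- cells. Spint1 stood at 0.142 FPKM at day 0 and at 1.51, 1.60, 6.11 and 12.4 FPKM at days 1, 3, 5 and 7. St14 stood at 0.989 FPKM at day 0 and at 2.21, 1.65, 2.57 and 5.01 FPKM afterwards, so that the inhibitor was below its protease until day 3 and above it at days 5 and 7, on the per-length FPKM scale. Ovol2 was listed at 0 at days 0 and 1 and stood at 0.372, 1.19 and 4.51 FPKM at days 3, 5 and 7. Grhl2 was listed at 0 at days 0 and 1 and stood at 1.5, 2.37 and 3.12 FPKM at days 3, 5 and 7. Esrp1 was listed at 0 until day 3 and stood at 3.33 and 3.36 FPKM at days 5 and 7. Cdh1 was thus at its highest level at day 1, in a library in which Ovol2, Grhl2 and Esrp1 were all listed at 0.

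In the bulk libraries with BMP4, Cdh1 and Epcam were lower and the keratins came to be higher than in BMP4- cells of the same day. The single-cell libraries of day 7, described further on, gave the same order for the keratins and the opposite one for Cdh1 and Epcam. Cdh1 stood at 15.5, 12.9, 20.9 and 27.6 FPKM at days 1, 3, 5 and 7 in BMP4+ cells, below the BMP4- library at each of the 4 days. Epcam was listed at 0 at day 1 and stood at 1.73, 5.09 and 18 FPKM at days 3, 5 and 7, also below BMP4- at each day. For Krt8 the BMP4+ values were 16.5, 17, 33.3 and 75.6 FPKM, below BMP4- at day 1 and above it from day 3. Those of Krt18 were 58.7, 78.3, 88.1 and 147.9 FPKM, above BMP4- at each day. For Krt19 they were 281.3, 194.1, 190.5 and 154.1 FPKM, again above BMP4- at each day. Krt19 was thus highest at day 1 in both arms, while Krt8 was highest at day 7 in BMP4+ cells and at day 1 in BMP4- cells. Sall4 RNA was lower with BMP4 at each day, at 468, 460, 266 and 194 FPKM against 712, 662, 334 and 280 FPKM. Esrrb was lower too, at 348, 312, 173 and 128 FPKM against 480, 406, 192 and 171 FPKM. Jdp2 was lower at days 1 and 3 and higher at days 5 and 7. BMP4 and the amounts of these RNAs cannot be told apart.

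**Figure D1:**
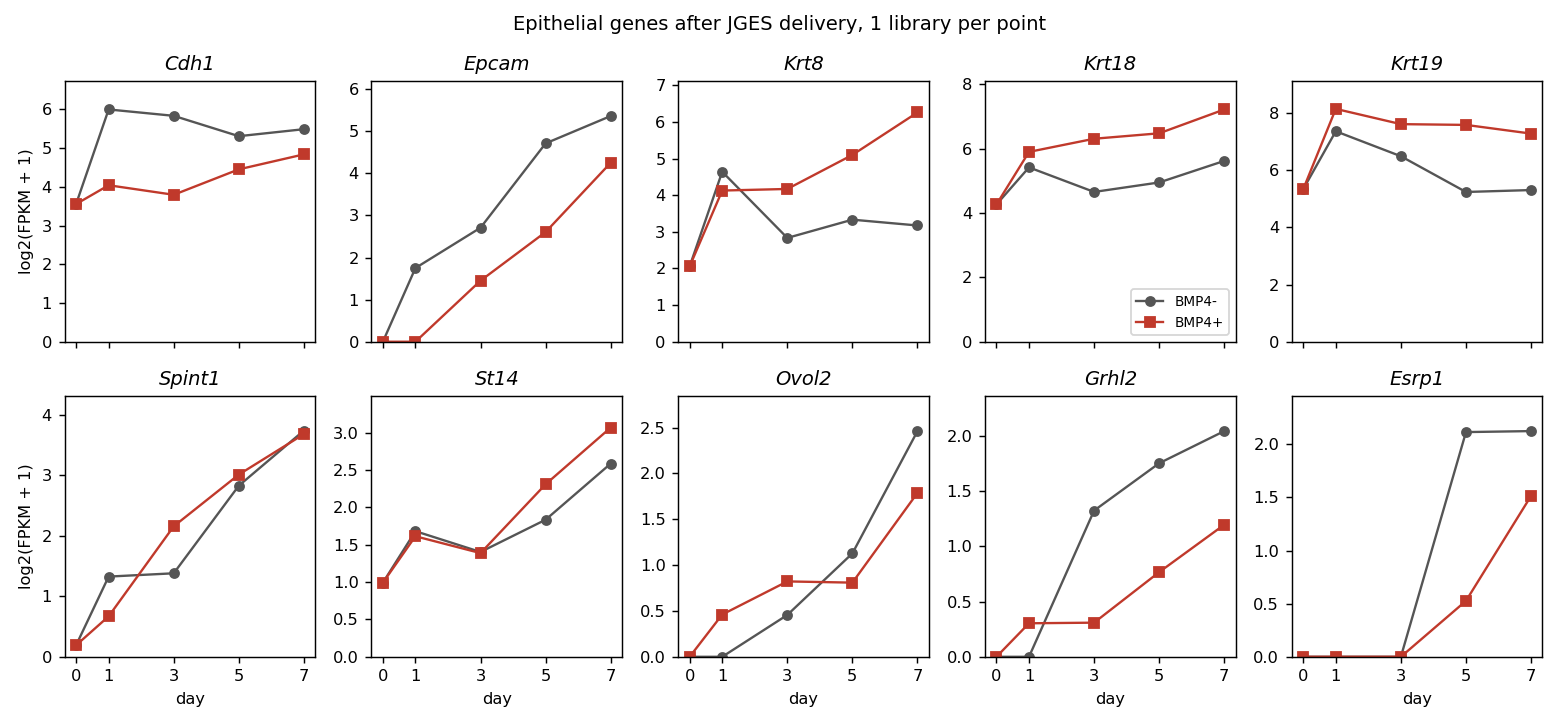
log2(FPKM + 1) of each of the 10 members (vertical axis, 1 panel per gene) against day of JGES reprogramming (horizontal axis), with 1 library per point and BMP4- (grey circles) and BMP4+ (red squares) as lines from the shared day 0 library. Krt8 ends higher with BMP4, at 75.6 FPKM against 8.02 FPKM, whereas Cdh1 and Epcam lie lower with BMP4 at days 1, 3, 5 and 7 in these bulk libraries, unlike in the single-cell libraries of day 7.

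Among the lower members, Grhl2 at day 3 stood at 1.5 FPKM without and 0.239 FPKM with BMP4, and Esrp1 at day 5 at 3.33 and 0.440 FPKM. Spint1 in BMP4+ cells stood at 0.590, 3.46, 7.08 and 11.8 FPKM at days 1, 3, 5 and 7, and St14 at 2.06, 1.62, 3.96 and 7.40 FPKM. Ovol2 stood at 0.376, 0.768, 0.752 and 2.45 FPKM, Grhl2 at 0.234, 0.239, 0.702 and 1.29 FPKM, and Esrp1 at 0, 0, 0.440 and 1.86 FPKM. At day 7 the 3 nuclear regulators were each lower with BMP4, and each by less than 1 log2 unit. Taking 5 FPKM as the mark of a first day, Epcam reached it at day 3 without and at day 5 with BMP4. Cdh1, Krt18 and Krt19 already passed it at day 0, Krt8 at day 1, Spint1 at day 5 and St14 at day 7 in both arms, and Ovol2, Grhl2 and Esrp1 did not reach it by day 7. With 1 FPKM as the mark, Epcam and Spint1 passed it at day 1 without and day 3 with BMP4. Grhl2 passed it at days 3 and 7, and Ovol2 and Esrp1 at days 5 and 7. Cdh1 and the keratins passed it at day 0 and St14 at day 1 in both arms.

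Differences between libraries are given on the log2(FPKM + 1) scale, which understates the change of low genes, and 1 unit or more, among genes with at least 1 FPKM in either library, is counted as higher or lower. At day 7, Krt8 was higher in BMP4+ by 3.09 units (8.49-fold in FPKM + 1), Krt19 by 1.97 units (3.93-fold) and Krt18 by 1.60 units (3.03-fold). In the same pair of libraries Epcam differed by -1.11, Cdh1 by -0.65, Grhl2 by -0.85, Ovol2 by -0.67 and Esrp1 by -0.61. That makes 3 members of 10 higher against 10.3% of all genes tested, and 1 of 10 lower against 13.8%. All 10 passed the filter on low values at days 5 and 7, but 7 did so at day 1 and 8 at day 3.

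Cdh1 and Epcam were lower at day 1, and the keratins were higher from day 3. At day 1 no member was higher, against 3.75% of all genes, and 2 were lower against 5.72%, Cdh1 by -1.96 and Epcam by -1.75. At day 3, 3 were higher against 6.81%, namely Krt18 by 1.65, Krt8 by 1.34 and Krt19 by 1.12. The 3 that were lower at day 3, against 8.99%, were Cdh1 by -2.04, Epcam by -1.26 and Grhl2 by -1.02. At day 5 the 3 keratins were again those higher, by 1.53 to 2.35 against 8.78% of all genes, and Epcam, by -2.11, and Esrp1, by -1.59, were lower against 13.2%. The median difference over the 10 genes was -0.03, 0.18, -0.07 and -0.33 at days 1, 3, 5 and 7, and over all genes tested it was -0.02, -0.09, -0.18 and -0.14. Pluripotency markers were lower with BMP4 in 6 of 6 at days 5 and 7 (medians of -4.75 and -4.45), and their part in the lower Epcam and Cdh1 was not tested. Of 6 markers of primitive endoderm cell-like cells (PrECLCs), 3 were higher with BMP4 at day 7 and none lower (median 1.05). At days 3 and 5 none of these was higher and 1 was lower. Endothelial markers were higher in 3 of 6 at day 7, with none lower. The part of these markers in the keratin levels was not tested.

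Each arm was also set against the shared day 0 library, which makes the 2 sets of differences dependent on the same library. The change from serum medium to iCD3 also lies between day 0 and the later days, and its part was not tested. Without BMP4, 9 of 10 members were higher at day 7 than at day 0, against 22.2% of all genes, and none was lower against 10.4%. The exception was Krt19, with a difference of -0.03, and the others ranged from 1.12 for Krt8 to 5.36 for Epcam. With BMP4, 10 of 10 were higher against 17.5% of all genes, from 1.20 for Grhl2 to 4.25 for Epcam, and none was lower against 9.47%. Without BMP4, 6 of 6 pluripotency markers were also higher (median 5.94). So were 5 of 6 PrECLC and 5 of 6 endothelial markers, while 1 PrECLC, 1 placenta-like and 2 keratinocyte markers were lower. With BMP4, 6 of 6 PrECLC (3.06), 6 of 6 endothelial (2.22), 5 of 6 pluripotency and 4 of 6 placenta-like markers were higher, with none lower. The part of these in the members' levels was not tested. Scaling the libraries to the same median ratio moves the BMP4 differences by 0.12 at day 7 and by 0.17 at day 5, and takes Epcam at day 7 to just short of the mark of 1 unit, while the 3 keratins stayed higher. The same scaling takes Grhl2 at day 3 short of the mark, leaving 2 members lower, and Krt8 in BMP4- at day 7 against day 0 to 0.95, leaving 8 of 10 higher. It turned the sign of 2 differences near 0, Spint1 at day 7 (-0.06 to 0.05) and St14 at day 3 (-0.02 to 0.04).

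A list of 24 other epithelial genes (claudins, other keratins, desmosome and junction genes) and a list of 18 mesenchymal genes were read beside the members. Of the 23 other epithelial genes measured, 16 were higher and 1 lower in BMP4- at day 7 than at day 0, with a median of 1.69, and 19 were higher and 1 lower in BMP4+, with a median of 1.81. In BMP4+ against BMP4- they numbered 9 higher and 3 lower at day 7, but 0 higher and 2 lower at day 1. At day 7 the tight junction gene Cldn6 stood at 17.3 FPKM without and 85.5 FPKM with BMP4, and Cldn7 at 3.15 and 17.6 FPKM. At day 1 the largest differences were Krt7, at 14.5 without and 1.32 FPKM with BMP4, and Cldn4, at 40.3 and 8.69 FPKM.

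Many mesenchymal genes were lower at day 1 than at day 0, when Epcam was at 2.36 FPKM or listed at 0. The medium was changed from serum to iCD3 between these days, and its part was not tested. Of 18, 13 were lower by 1 unit or more at day 1 in BMP4-, against 9.28% of all genes, and 14 at day 7. In BMP4+ 8 were lower at day 1, against 9.05%, and 9 at day 7, with 2 and 4 above their day 0 level, and none was higher by 1 unit in either arm. Of the 10 members, 6 were higher at day 1 than at day 0 in BMP4-, against 11.8% of all genes, and 3 in BMP4+, against 9.78%. Acta2, the smooth muscle actin of myofibroblasts, stood at 982.8 FPKM at day 0, at 23.8 FPKM in BMP4- at day 1 and at 22.8 FPKM in BMP4+ at day 1. Col1a1, a chain of type I collagen, stood at 524.4 FPKM at day 0 and at 72.7 FPKM in BMP4- and 67.8 FPKM in BMP4+ at day 1. By day 7 it stood at 20.2 FPKM without and 361.2 FPKM with BMP4, and Col1a2 at 15.8 and 220.0 FPKM. The summed FPKM of the list was 5157 at day 0, between 550.6 and 946.5 in BMP4- and between 1321 and 2063 in BMP4+. The BMP4+ libraries thus combined a higher mesenchymal sum, at each day, with higher keratin levels from day 3, and the part of either in the other was not tested. The summed FPKM of the keratinocyte markers was 111.8 and 87.8 in BMP4+ at days 5 and 7 and 16.1 and 2.58 in BMP4-, and its part in the keratin levels was not tested.

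Over the 17 libraries of the time course table, the genes whose profile was most like the mean of the members (standardized log2 values, 12351 genes ranked) were Cldn6 with a Pearson r of 0.937, Folr1 with 0.923, Crb3 with 0.915, Lama1 with 0.912 and Rhpn2 with 0.904. These correlations are descriptive, since libraries of one course share their cells of origin and, in JGES, a depth.

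SALL4 alone was compared in its WT and delN12 forms to see what the N-terminal residues change. Sall4 RNA itself was higher in each SALL4-delN12 library, at 809.2, 623.3, 970.8 and 428.1 FPKM against 548.8, 491.2, 518.0 and 290.3 FPKM, so the form and the amount of Sall4 cannot be told apart. The keratins Krt8, Krt18 and Krt19 were higher by 1 unit or more in SALL4-delN12 cells from day 1, and Cdh1 and Epcam from day 5. Krt8 stood at 9.79, 11.3, 21.8 and 31.8 FPKM at days 1, 5, 9 and 11 in SALL4-WT cells and at 140.9, 165.7, 170.1 and 169.2 FPKM in SALL4-delN12 cells. Krt18 stood at 95, 82.0, 104.3 and 85.9 FPKM with SALL4-WT and at 477.9, 440.7, 449.3 and 316.2 FPKM with SALL4-delN12. For Krt19 the values were 6.04, 12.9, 17.2 and 10.0 FPKM with SALL4-WT and 41.9, 44.8, 45.6 and 77.6 FPKM with SALL4-delN12. The 4 SALL4-delN12 values lay above all 4 SALL4-WT values for 3 of 10 members, these keratins, against 5.96% of all genes, and below them for none, against 7.44%. In SALL4-delN12 cells Krt8 and Krt18 were already at 140.9 and 477.9 FPKM in the first library taken.

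**Figure D2:**
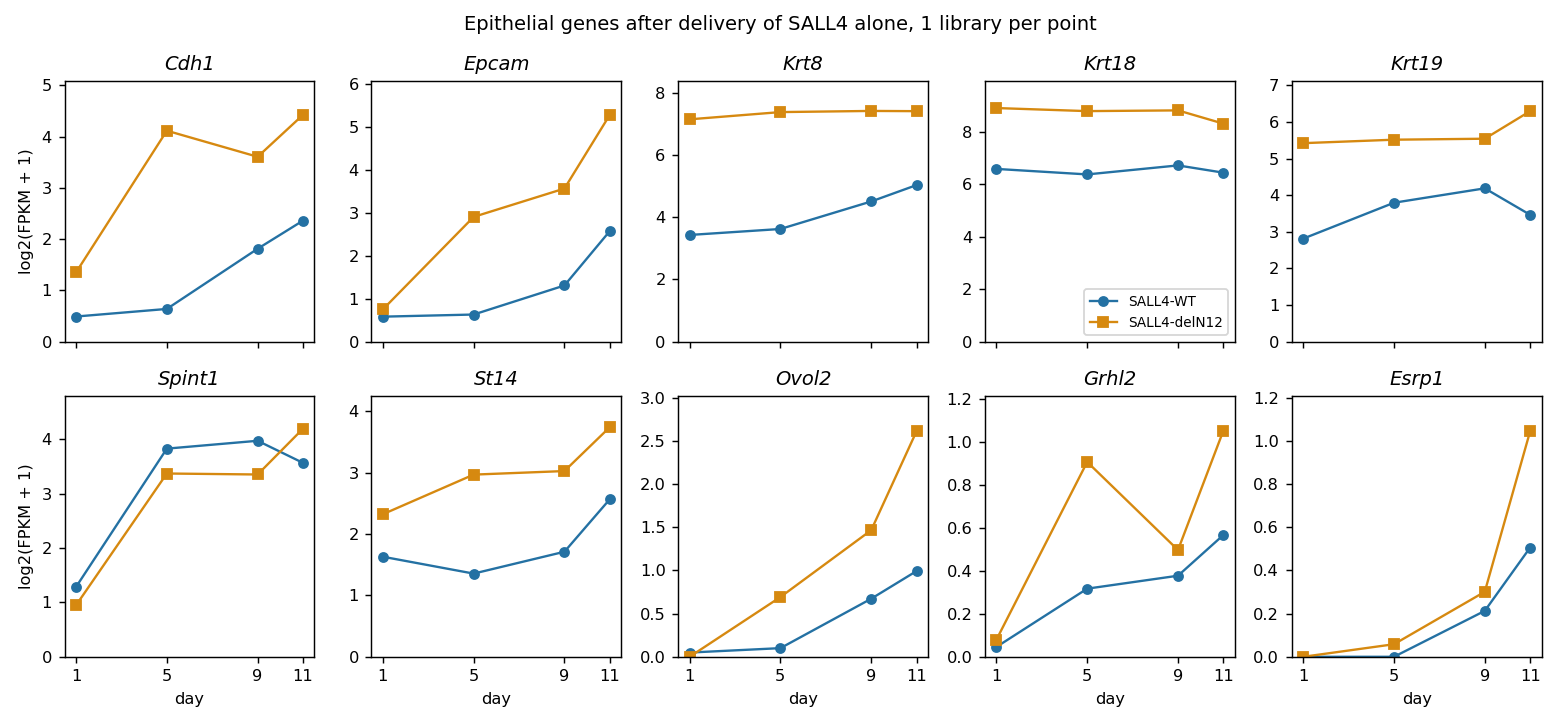
log2(FPKM + 1) of each of the 10 members (vertical axis, 1 panel per gene) at days 1, 5, 9 and 11 (horizontal axis) for each SALL4 form delivered on its own, 1 library per point, SALL4-WT as blue circles and SALL4-delN12 as orange squares. The 2 lines of Krt8 are apart from day 1, at 9.79 and 140.9 FPKM, while those of Epcam part from day 5 and reach 4.97 and 38.0 FPKM at day 11.

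The adhesion genes were higher at day 11 than at day 1 in both forms, and SALL4-delN12 values lay above SALL4-WT values at every day, at day 1 by less than 1 unit. For Cdh1 this day 1 difference was 0.86 units, and 1.71 with a pseudocount of 0.1, so that its first day past 1 unit depends on the pseudocount. Cdh1 stood at 0.406, 0.558, 2.52 and 4.14 FPKM in SALL4-WT cells and at 1.55, 16.3, 11.2 and 20.5 FPKM in SALL4-delN12 cells. Epcam stood at 0.499, 0.551, 1.48 and 4.97 FPKM in SALL4-WT cells and at 0.685, 6.51, 10.9 and 38.0 FPKM in SALL4-delN12 cells. Between days 1 and 11 Epcam differed by 4.53 units in SALL4-delN12 and by 1.99 units in SALL4-WT, while Krt18 differed by -0.59 and -0.14. The Cdh1 level at SALL4-WT day 11, 4.14 FPKM, was below that of JGES day 0, 10.8 FPKM.

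Among the protease pair and regulators, St14 and Ovol2 differed between the forms and Spint1 did not by the same measure. Spint1 stood at 1.44, 13.2, 14.7 and 10.8 FPKM with SALL4-WT and at 0.929, 9.34, 9.21 and 17.3 FPKM with SALL4-delN12. St14 stood at 2.10, 1.56, 2.28 and 4.93 FPKM with SALL4-WT and at 4.01, 6.83, 7.15 and 12.4 FPKM with SALL4-delN12. Ovol2 stood at 0.0346, 0.0719, 0.594 and 0.991 FPKM with SALL4-WT, and was listed at 0 at day 1 and at 0.616, 1.76 and 5.12 FPKM afterwards with SALL4-delN12. The matriptase gene was thus higher with SALL4-delN12 at each day, whereas the order of the 2 forms for Spint1 turned between day 9 and day 11. Grhl2 did not pass 0.482 FPKM with SALL4-WT and reached 1.08 FPKM at day 11 with SALL4-delN12, and Esrp1 reached 0.421 and 1.07 FPKM.

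In SALL4-delN12 minus SALL4-WT, 3 members were higher at day 1, against 4.18% of all genes, and none was lower against 5.63%. They were the keratins, Krt8 by 3.72 units (13.2-fold in FPKM + 1), Krt19 by 2.61 and Krt18 by 2.32 units (4.99-fold). At day 5, 6 members were higher against 4.67% of all genes, the keratins with Cdh1 by 3.48, Epcam by 2.27 and St14 by 1.61. The same 6 were higher at day 9, against 6.09%, by 1.32 to 2.91. At day 11, 7 were higher against 6.55%, with Ovol2 joining at 1.62. None was lower by 1 unit at days 5, 9 or 11, against 5.19%, 5.75% and 6.58% of all genes. Members that passed the filter numbered 6, 7, 8 and 10 at the 4 days, and the median difference over the 10 genes was 0.43, 1.67, 1.34 and 1.74.

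Within each form, 4 members were higher at day 11 than at day 1 in SALL4-WT cells, against 11.5% of all genes, and 6 in SALL4-delN12 cells, against 10.4%. None was lower by 1 unit in either form, against 8.76% and 4.61%. The 4 in SALL4-WT cells were Spint1 by 2.28, Epcam by 1.99, Cdh1 by 1.87 and Krt8 by 1.60. Those in SALL4-delN12 cells were Epcam by 4.53, Spint1 by 3.25, Cdh1 by 3.07, Ovol2 by 2.61, St14 by 1.42 and Esrp1 by 1.05. PrECLC markers were higher at day 11 in 6 of 6 with SALL4-delN12 (median 3.84) and in 1 of 6 with SALL4-WT. Macrophage markers were higher in 3 of 6 with SALL4-delN12 and lower in 3 of 6 with SALL4-WT (median -1.37). Placenta-like markers were higher in 3 and 2 of 6. Keratinocyte markers were higher in 2 of 6 and lower in 1 in both forms. The part of these in the members' change was not tested.

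Other genes of epithelia and mesenchyme moved less uniformly between the 2 SALL4 forms. Of 23 other epithelial genes, 3, 8, 9 and 12 were higher and 2, 1, 1 and 0 lower with SALL4-delN12 at days 1, 5, 9 and 11. At day 1 Krt7 stood at 1.78 FPKM with SALL4-WT and 78.0 FPKM with SALL4-delN12, Cldn4 at 44.6 and 260.5 FPKM, and Spint2, a second inhibitor of serine proteases, at 80.5 and 21.4 FPKM. At day 11 Cldn6 stood at 2.42 and 75.7 FPKM and Cldn7 at 1.51 and 32.0 FPKM. Of 18 mesenchymal genes, 3, 3, 2 and 2 were higher and 4, 5, 7 and 5 lower, with fibronectin (Fn1) at 958.3 FPKM with SALL4-WT and 87.4 FPKM with SALL4-delN12 at day 11. The summed FPKM of 6 macrophage markers was 77.2, 32.6, 22.1 and 22.1 in SALL4-WT cells and 112.2, 142.4, 141.4 and 280.5 in SALL4-delN12 cells, with 2, 4, 5 and 5 of 6 higher by 1 unit. It was 1.05 to 8.43 in the JGES course. Of 6 PrECLC markers, 0, 1, 5 and 6 were higher by 1 unit with SALL4-delN12 at days 1, 5, 9 and 11, with medians of 2.49 and 3.41 at days 9 and 11. Keratinocyte markers were higher by 1 unit in 1, 4, 3 and 2 of 6 at these days, and lower in 1, 0, 0 and 1. Their sum was 15.4, 5.79, 9.45 and 20.4 FPKM with SALL4-WT and 16.7, 54.7, 30.2 and 31.3 FPKM with SALL4-delN12. Placenta-like markers were higher in 1, 3, 2 and 3 of 6, and their sum was 3.94 and 27.4 FPKM at day 1. The part of these marker lists in the differences between the SALL4 forms was not tested.

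Both keratins of the Krt8 and Krt18 pair were high together, but in differing proportion. The ratio of Krt18 to Krt8, on the per-length FPKM scale, was 9.70 at day 1 and 2.7 at day 11 in SALL4-WT cells and 3.39 and 1.87 in SALL4-delN12 cells. In JGES cells it was 5.76 at day 0, and at day 7 it was 6.01 without and 1.96 with BMP4. Reads from pseudogenes of Krt8 may add to its count, and antisense or overlapping transcripts lie over Ovol2, Grhl2 and Esrp1, whose reads cannot be told apart where strand was not used.

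The sets of factors at day 7 compare cells with and without Sall4 and Oct4, and the RNA levels of the shared factors differed between them. Of the 10 members, 8 had their highest level in a JGESO library, against 24.4% of all genes, and the other two, Krt19 and Grhl2, in a JGES library. Krt8 stood at 8.37 and 10.7 FPKM in JGE without and with BMP4, at 4.68 and 7.61 FPKM in JGEO, at 70.9 and 135.6 FPKM in JGESO and at 7.82 and 73.9 FPKM in JGES. Epcam stood at 1.53 and 1.53 FPKM in JGE, at 15.1 and 22.4 FPKM in JGEO, at 45.6 and 48.6 FPKM in JGESO and at 39.1 and 17.6 FPKM in JGES. JGES was the set in which BMP4 went with lower Epcam, and in JGESO the Epcam values without and with BMP4 differed by 0.09 units.

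Cdh1 stood at 5.21 and 4.86 FPKM in JGE, at 14.3 and 17.6 FPKM in JGEO, at 59.1 and 46.6 FPKM in JGESO and at 42.8 and 27 FPKM in JGES, without and with BMP4. Spint1 stood at 1.65 and 1.59 FPKM in JGE, at 5.06 and 10.8 FPKM in JGEO, at 43.4 and 45.3 FPKM in JGESO and at 12.1 and 11.6 FPKM in JGES. St14 stood at 1.47 and 0.539 FPKM in JGE, at 2.35 and 2.52 FPKM in JGEO, at 27.1 and 22.2 FPKM in JGESO and at 4.88 and 7.31 FPKM in JGES. The protease and its inhibitor were thus both highest in JGESO, where Spint1 also exceeded its JGES level. Krt18 stood at 25.5 and 23.8 FPKM in JGE, at 8.52 and 13.1 FPKM in JGEO, at 126.5 and 268.2 FPKM in JGESO and at 47.0 and 144.6 FPKM in JGES, again without and with BMP4. Krt19 departed from the other keratins in JGE, at 71.0 and 97.3 FPKM, against 8.86 and 34.0 FPKM in JGEO, 106.3 and 134.3 FPKM in JGESO and 37.5 and 150.7 FPKM in JGES. The type I keratin Krt19 was thus well above Krt8, its type II partner, in both JGE libraries.

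Of the nuclear regulators, Ovol2 stood at 0.135 and 0.339 FPKM in JGE, at 1.44 and 0.965 FPKM in JGEO, at 8.73 and 7.92 FPKM in JGESO and at 4.39 and 2.4 FPKM in JGES. Esrp1 stood at 0.0635 and 0.0353 FPKM in JGE and between 0.892 and 3.78 FPKM in the other sets. Grhl2 stood between 0.748 and 3.04 FPKM in all 8 libraries, so that it alone of the 3 was not lowest in both JGE libraries.

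**Figure D3:**
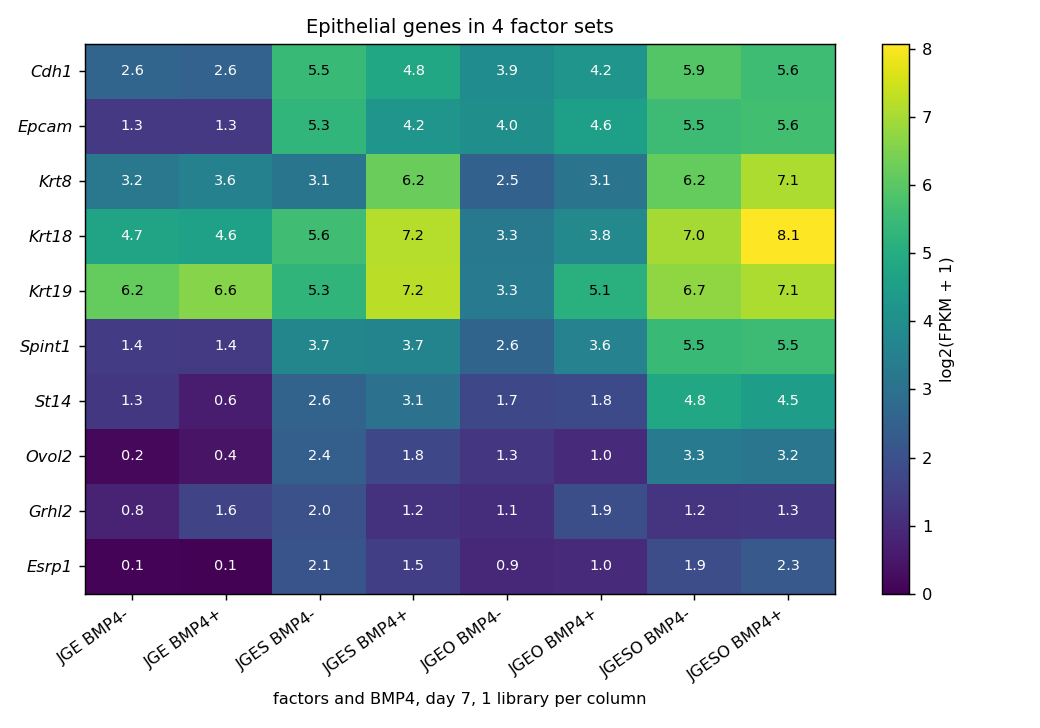
Heat map of log2(FPKM + 1), printed in each cell, for the 10 members (rows) in JGE, JGES, JGEO and JGESO cells at day 7 without and with BMP4 (columns), 1 library per column. The JGESO columns are the brightest for most members, with Krt8 at 70.9 and 135.6 FPKM, and the keratins of JGES are brighter with BMP4.

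Between BMP4+ and BMP4-, no member passed 1 unit in JGE, against 4.28% of all genes higher and 4.78% lower. In JGEO, 1 was higher, Krt19 by 1.83, against 2.26%, and none was lower against 1.95%. Grhl2 differed by 0.84 in JGE, 0.88 in JGEO and -0.85 in JGES. With a pseudocount of 0.1 these become 1.39, 1.3 and -1.21, so that Grhl2 passes 1 unit in opposite directions, and St14 in JGE (-1.3) and Spint1 in JGEO (1.08) pass it too. In JGESO, 1 was higher, Krt18 by 1.08, against 5.29%, and none was lower against 3.52%, with Krt8 at 0.93. Keratinocyte markers were higher by 1 unit with BMP4 in 3 of 6 in JGESO (median 1.06), where their sum was 33.2 FPKM without and 163.8 FPKM with BMP4, and their part in the keratin levels was not tested. Whether the effect of BMP4 on a member differs between sets was not tested, there being 1 library each.

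Between sets without BMP4, JGESO exceeded JGEO by 1 unit or more in 8 of 10 members, against 7.48% of all genes, and none was lower, against 20.7%. The 8 ranged from 1.53 for Epcam to 3.74 for Krt18, and the other two were Esrp1 at 0.98, which scaling to the same median ratio takes to 1.14, and Grhl2 at 0.14. JGES exceeded JGE in 7 of 10, against 20.1%, with none lower against 16.9%, from 1.21 for Grhl2 to 3.99 for Epcam, while Krt8 differed by -0.09, Krt18 by 0.86 and Krt19 by -0.90. JGESO exceeded JGES in 5 of 10, against 16.8%, with none lower against 32.7%, and these were Krt8 by 3.03, St14 by 2.26, Spint1 by 1.77, Krt19 by 1.48 and Krt18 by 1.41. The JGES libraries of this table are the day 7 libraries of the time course, listed again at 0.975 and 0.978 times their earlier FPKM, and hold 0.170 to 0.184 times the fragments of JGE BMP4-. Depth and factor set cannot be told apart in comparisons that involve JGES here. Without BMP4, Jdp2 stood at 1722, 1290, 319.7 and 228.1 FPKM in JGE, JGEO, JGESO and JGES. Esrrb stood at 561.2, 384.1, 108.8 and 166.5 FPKM in the same libraries. Oct4 (Pou5f1) stood at 1570 FPKM in JGEO and 369.6 FPKM in JGESO. The added factor and the amounts of the shared factors cannot be told apart in these comparisons. Marker genes of other cell types moved with the members. PrECLC markers were higher by 1 unit in 6 of 6 in JGESO against JGEO (median 3.55), in 6 of 6 in JGESO against JGES (2.56) and in 5 of 6 in JGES against JGE (1.76). Pluripotency markers were higher in 6 of 6 in JGES against JGE and lower in 4 of 6 in JGESO against JGES, and macrophage markers were lower in 5 of 6 and higher in 4 of 6 in the same comparisons. Keratinocyte markers were higher in 3 of 6 in JGESO against JGES, with none lower (median 1.38), and in 2 of 6 in JGESO against JGEO. The part of these in the members' levels was not tested.

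Single-cell RNA-seq at day 7 gave 11335 BMP4+ and 8685 BMP4- cells, with median UMI counts (unique molecules per cell) of 21205 and 12738. The authors' annotation placed BMP4+ cells in intermediate (7125 cells), primitive endoderm cell-like (PrECLC, labelled ParE, 2372), endothelial (1453) and placenta-like (385) types, and BMP4- cells in intermediate (6211), pluripotent (1825), endothelial (507) and PrECLC (142) types. The types were defined from all genes, the members among them, so differences between types are a description. The summed level of 6 PrECLC markers was 1308 CPM (UMIs summed over the cells of a type and scaled to the same total in every type) in BMP4+ PrECLCs and 38.1 in BMP4+ intermediate cells, that of 6 pluripotency markers 7013 CPM in pluripotent and 288.9 in BMP4- intermediate cells, and that of 6 endothelial markers 596.3 CPM in BMP4+ endothelial cells and 11.1 in BMP4+ intermediate cells. The 6 placenta-like markers were less distinct, at 108.8 CPM in placenta-like and 49.5 CPM in BMP4+ intermediate cells. Keratinocyte markers summed to 127.5 CPM in placenta-like cells, above the placenta-like markers, and to 100.3 CPM in BMP4+ intermediate cells. They were lower in PrECLCs and endothelial cells of that library. The part of the keratinocyte markers in the members' levels of placenta-like cells was not tested. The 2 libraries shared 2 cell barcodes.

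Placenta-like cells held the highest CPM of 9 of the 10 members among BMP4+ types, against 30.6% of genes with at least 1 CPM in any type. PrECLCs held the highest of 7 among BMP4- types, against 29.9%, and of 3 when types were set by marker genes. That rule forms a BMP4- placenta-like class of 5 cells, and with classes of at least 50 cells PrECLCs held the highest of 6. Of those 7, Epcam and Esrp1 had counting intervals that overlapped those of pluripotent cells. Epcam was high in 3 different types, at 281.4 CPM in placenta-like cells, 205.7 CPM in BMP4+ PrECLCs and 161.3 CPM in pluripotent cells, against 34.0 and 19.9 CPM in BMP4+ and BMP4- intermediate cells. In BMP4- PrECLCs it was 161.4 CPM. Epcam was therefore near the same level in pluripotent cells and in PrECLCs of the same library.

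Krt8 separated these types. It stood at 995.1 CPM in placenta-like cells, 359.3 CPM in BMP4+ PrECLCs, 93.2 CPM in BMP4+ intermediate and 48.5 CPM in BMP4+ endothelial cells. In the BMP4- library it stood at 106.3 CPM in PrECLCs, 17.3 CPM in intermediate, 4.16 CPM in endothelial and 2.7 CPM in pluripotent cells, the last with an exact Poisson 95% interval of 2.14 to 3.36 CPM, which covers counting error only. Krt18 stood at 1641, 538.2, 348.3 and 157.3 CPM in placenta-like, PrECLC, intermediate and endothelial BMP4+ cells, and at 350.7, 114.0, 87.3 and 20.3 CPM in PrECLC, intermediate, endothelial and pluripotent BMP4- cells. Krt19 was flatter, between 108.6 and 267.8 CPM over the BMP4+ types, but 7.89 CPM in pluripotent cells. Pluripotent cells thus had Epcam at the level of the PrECLCs of their library and the lowest level of each keratin, although for Krt8 their counting interval overlapped that of endothelial cells.

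**Figure D4:**
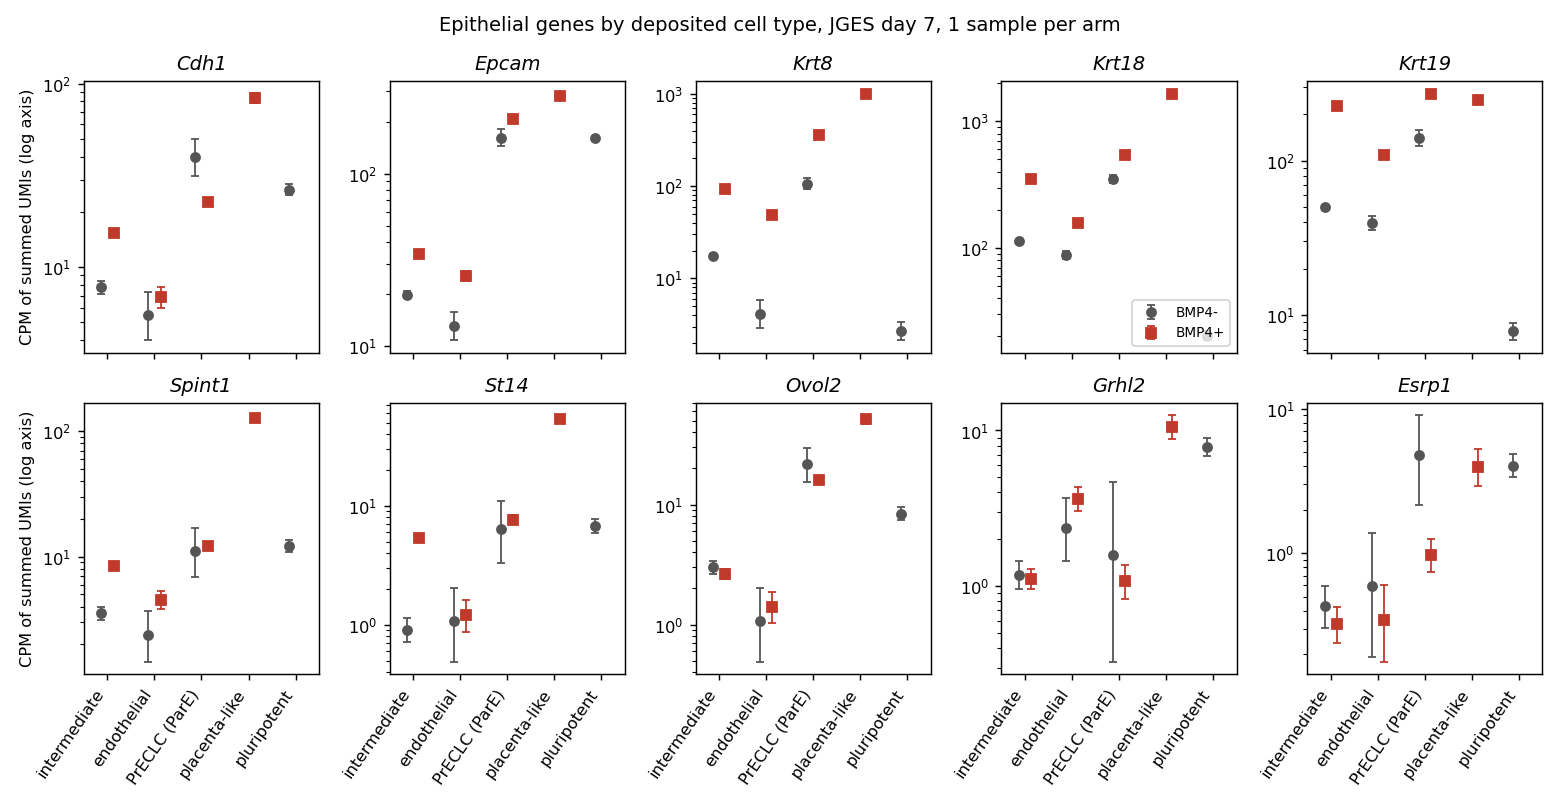
CPM of the 10 members (vertical log axis, 1 panel per gene) by cell type (horizontal axis) at day 7 in the BMP4- (grey circles) and BMP4+ (red squares) libraries, each point the UMIs of a type summed over its cells and each bar an exact Poisson 95% interval. Krt8 lies at 995.1 CPM in placenta-like cells and at 2.7 CPM in pluripotent cells, whereas Epcam lies at 281.4 and 161.3 CPM in the same types.

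Cdh1 was below Epcam in CPM in every type. It stood at 83.0 CPM in placenta-like cells, 22.6 CPM in BMP4+ PrECLCs, 15.4 CPM in BMP4+ intermediate cells, 26.4 CPM in pluripotent cells and 7.77 CPM in BMP4- intermediate cells. In PrECLCs it was lower with BMP4, 22.6 CPM (interval 21.4 to 23.8), than without, 39.7 CPM (31.2 to 49.7), the latter from 142 cells. With types set by marker genes the values were closer, at 23.5 CPM with and 29.2 CPM without BMP4. The BMP4- PrECLCs also held pluripotency markers at 865.0 CPM, against 23.5 CPM in BMP4+ PrECLCs and 288.9 CPM in BMP4- intermediate cells, and the part of these in the Cdh1 level was not tested.

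The protease pair and Ovol2 had their highest CPM in placenta-like cells. Spint1 stood at 127.3 CPM there and at 4.52 to 12 CPM in the other BMP4+ types, and at 12.2 CPM in pluripotent and 11.1 CPM in PrECLC BMP4- cells. St14 stood at 53.5 CPM in placenta-like cells, at most 7.67 CPM in other BMP4+ types and 6.81 CPM in pluripotent cells. Ovol2 stood at 51.4 CPM in placenta-like cells, 21.7 CPM in BMP4- and 16.0 CPM in BMP4+ PrECLCs, and 8.42 CPM in pluripotent cells, with 1.07 to 3.01 CPM elsewhere. Grhl2 was at most 10.5 CPM, in placenta-like cells, and in BMP4- PrECLCs it rested on 3 UMIs. Esrp1 was at most 4.76 CPM.

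Set against intermediate cells of the same library, placenta-like cells were higher in 10 of 10 members, with a median ratio of 9.74, and 9 passed 2-fold against 14.6% of genes with at least 1 CPM in either type. The ratio of PrECLCs to intermediate cells had a median of 1.51 in BMP4+, with 3 of the 9 members that passed the filter 2-fold higher against 13.5%, and a median of 5.62 in BMP4-, with 9 of 10 2-fold higher against 12.6%. Pluripotent cells were 2-fold higher in 7 members, against 13.3% of genes, and 2-fold lower in the other 3, the keratins, against 20.2%. BMP4+ intermediate cells exceeded BMP4- intermediate cells 2-fold in 5 of 9 members, against 29.1% of genes, so that the share among all genes was also high. In intermediate cells without and with BMP4, keratinocyte markers summed to 5.43 and 100.3 CPM and mesenchymal genes to 1009 and 2582 CPM. Pluripotency markers summed to 288.9 and 7.76 CPM in the same cells. The part of these in the members' levels was not tested. Endothelial cells were 2-fold lower than BMP4+ intermediate cells in 4 of 9 members, against 21.5%, and 2-fold higher in 1, Grhl2 at 3.64 against 1.11 CPM, against 11.3%.

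Over all cells of a library, the single-cell sums did not order the arms as bulk RNA did for the adhesion genes. Cdh1 summed to 12.6 CPM without and 18.9 CPM with BMP4, and Epcam to 55.7 and 83.0 CPM (1.49 times), whereas both were lower with BMP4 in bulk at day 7. Ovol2 was also opposite, at 4.47 and 7.66 CPM (1.72). Spint1, with a bulk difference of -0.06, stood at 5.65 and 14.0 CPM. Both assays had Krt8, Krt18 and Krt19 higher with BMP4, at 13.2, 4.55 and 5.44 times in CPM, and St14 at 3.07 times, while Grhl2 (0.640 times) and Esrp1 (0.460 times) were lower in both. The assays have 1 library per arm each, and the source of the disagreement was not tested.

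The single-cell libraries were made up of cell types of very different size. Placenta-like cells made up 3.40% of BMP4+ cells and gave 23.4% of the Krt8 UMIs and 40.2% of the Spint1 UMIs of that library. They gave 31.6% of the St14 UMIs, below the 42.8% from intermediate cells, and 29.6% of the Ovol2 UMIs, below the 47.5% from PrECLCs. PrECLCs made up 20.9% of BMP4+ cells and gave 56.5% of the Epcam and 43.6% of the Krt8 UMIs. In the BMP4- library the pluripotent cells, 21% of cells, gave 69.8% of the Epcam UMIs, whereas the intermediate cells, 71.5% of cells, gave 82.0% of the Krt8 UMIs. Epcam and Krt8 of the BMP4- library therefore came mostly from different types.

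To ask whether members occur in the same cell, each cell was thinned to 4000 UMIs. An Epcam UMI was then seen in 52.7% of BMP4+ PrECLCs, 55.1% of placenta-like cells and 42.5% of pluripotent cells, and in 7.23% and 4.73% of BMP4+ and BMP4- endothelial cells, a type not known for Epcam. Before thinning the shares were 92.5%, 89.1%, 80.2%, 25.7% and 15.6%. Krt8 was seen in 63.8% of BMP4+ PrECLCs and 0.82% of pluripotent cells after thinning. Of placenta-like cells, 32.7% (126 cells) held 5 or more of the 10 members, as did 6.03% (143) of BMP4+ PrECLCs, 0.365% (26) of BMP4+ intermediate cells and none of the 1825 pluripotent cells. At this depth a count of 0 leaves room for a share of 0.164% of cells in which 5 are detected, and sets no limit on cells that express 5. All 3 keratins were seen together in 33.2% of BMP4+ PrECLCs and 29.4% of placenta-like cells, and Cdh1 together with Epcam in 5.02% and 18.7%. Members other than keratins, with no keratin, were seen in 51.0% of pluripotent cells and keratins alone in 5.42%. Keratins alone were seen in 50.6% of BMP4+ intermediate cells, but also in 36.4% of BMP4+ and 26.0% of BMP4- endothelial cells, a type not known for them. Cells that held 5 or more members and 5 or more mesenchymal genes numbered 12 of 11335 in BMP4+ and 0 of 8685 in BMP4-, where 0 leaves room for 0.0345% of cells with such a detection.

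Chromatin at the members was read from the peak lists of the SALL4-alone course, each list holding regions with a score of at least 50 (10 times the negative log10 of the p-value). A member was counted when a peak lay within 2 kb of its GENCODE 5′ end. The score depends on depth, which these lists do not give, so a missing peak says only that none was listed. In MEFs, 8 of 10 members had a peak, against 66.2% of 21951 promoters, but 2 of 10 with a score of at least 100, against 61.4%. In SALL4-WT cells 3, 9, 6 and 9 had one at days 1, 5, 9 and 11, against 60.0%, 64.4%, 63.7% and 64.0%. In SALL4-delN12 cells the counts were 2, 4, 7 and 8, against 57.9%, 59.8%, 61.4% and 61.9%. By these counts SALL4-WT was above SALL4-delN12 at days 1, 5 and 11 and below it at day 9. With a score of at least 100 the order turned at days 9 and 11. SALL4-WT then had 3 and 3 members, against 57.4% and 58.6% of promoters, and SALL4-delN12 had 2 and 6, against 55.2% and 55.1%.

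Individual members showed peaks at differing places. Cdh1 (chr8:106603351-106670246, plus strand) had a peak over its start site with SALL4-delN12 at days 9 and 11, with scores of 95.1 and 308.8, with SALL4-WT at day 11 (73.1), and in MEFs (66.1). No list of day 1 or 5 held one, although Cdh1 RNA stood at 16.3 FPKM at day 5 with SALL4-delN12. Epcam (chr17:87635979-87651129, plus strand) had none in MEFs or at day 1. With SALL4-delN12 at day 11 it had a peak from 211 to 30 bp upstream of its start, with a score of 106.8, which covers the E-box at -187 shown above and not the one at -19. A second Epcam region, 454 to 940 bp downstream in the same library, scored 255.7 and covers exon 2 (479 to 915 bp), which holds the start codon. That second region was also listed for SALL4-WT at days 5 (155.2) and 11 (108.3) and SALL4-delN12 at day 9 (140.7), and SALL4 itself had a CUT&Tag peak there in SALL4-WT cells at day 6, with a score of 52.9.

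**Figure D5:**
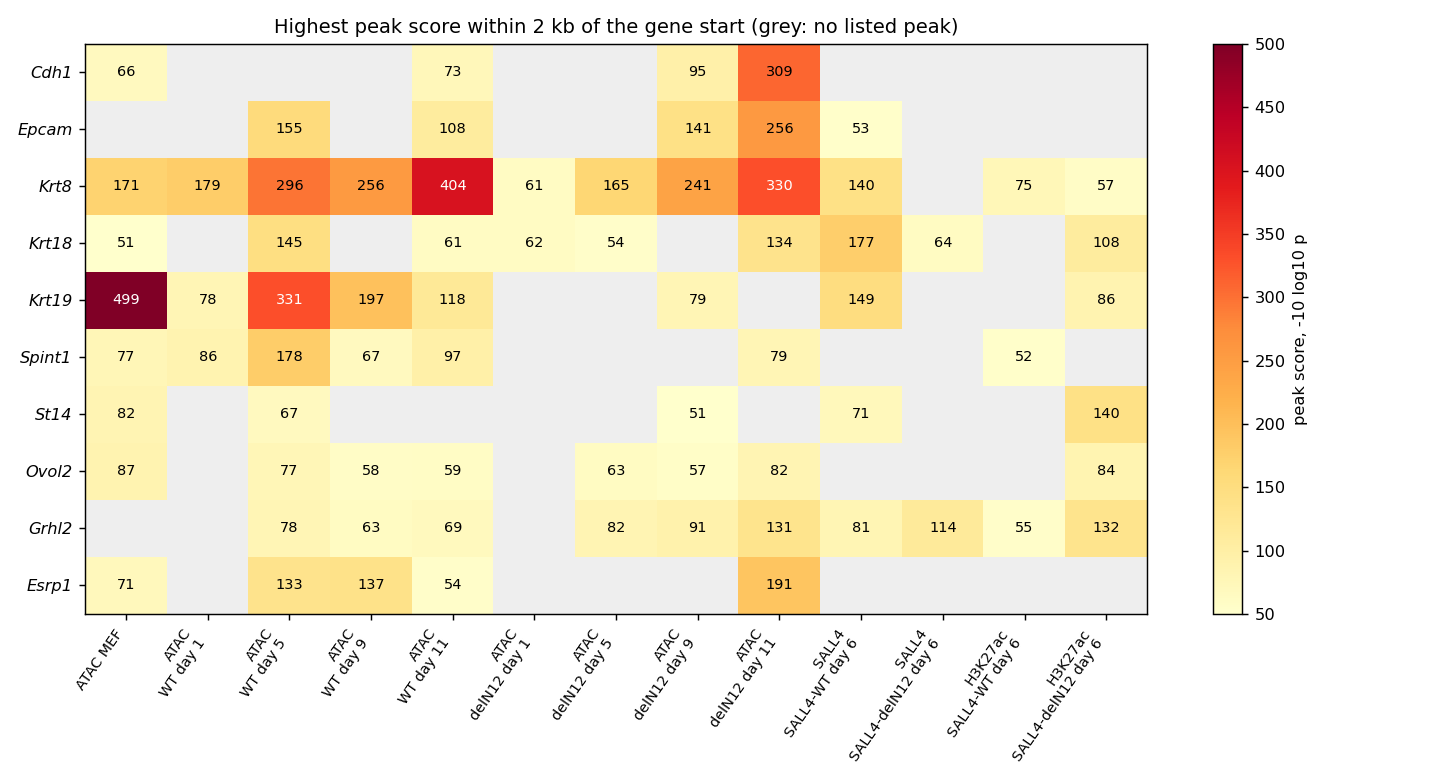
Heat map of the highest peak score (10 times the negative log10 p) within 2 kb of the start of each member (rows) in each ATAC-seq and CUT&Tag library (columns), printed in each cell and grey where no peak is listed. Cdh1 has peaks in MEFs, SALL4-WT day 11 and SALL4-delN12 days 9 and 11, and Krt19 is highest in MEFs, at 499.0.

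Krt8 (chr15:101996698-102004482, minus strand) and Krt18 (chr15:102028180-102032027, plus strand) are neighbours whose starts lie 23.7 kb apart. Over the Krt18 start a peak was listed with SALL4-delN12 at days 1 (61.9), 5 (54.0) and 11 (134.2) and with SALL4-WT at days 5 (145.0) and 11 (61.4), and not in MEFs, and none of these reaches the Krt18 E-box. Krt8 had a peak over its start in SALL4-delN12 cells at day 11 (55.9). A region about 1 kb inside the gene was listed in MEFs (170.7) and with SALL4-WT at days 1 (179.4), 5 (162.9), 9 (255.7) and 11 (404.4). With SALL4-delN12 that region was listed at days 5 (165.1), 9 (241.4) and 11 (330.4), and not at day 1. Krt19 (chr11:100140810-100148665, minus strand) had no peak over that gene end. Its GENCODE basic transcript starts 2545 bp inside the gene end, and the Krt19 peak of the MEF list lies 1505 to 1858 bp upstream of that start. This region scored 499.0 in MEFs and 78.2, 330.7, 197.1 and 117.5 in SALL4-WT cells at days 1, 5, 9 and 11, and of the SALL4-delN12 ATAC-seq lists only day 9 held it (78.7).

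Peaks of the remaining members also lay at differing places. Spint1 (chr2:119237362-119249527, plus strand) had a peak over its start with SALL4-WT at days 1 (86.3), 5 (178.4), 9 (56.01) and 11 (73.65). With SALL4-delN12 it had one at day 11 alone (79.1). Grhl2 (chr15:37233036-37363569, plus strand) had none in MEFs, other peaks within 2 kb at day 5 with SALL4-WT (78.5) and SALL4-delN12 (82.3), and one over its start with SALL4-delN12 at day 11 (82.7). Esrp1 (chr4:11331933-11386783, minus strand) also had one over its start in that library (81.3), and upstream peaks in MEFs (70.9), with SALL4-WT at days 5 (133.3) and 9 (136.9) and with SALL4-delN12 at day 11 (191.5). St14 (chr9:31089402-31131853, minus strand) had ATAC-seq peaks within 2 kb in MEFs (81.8), with SALL4-WT at day 5 (66.9) and with SALL4-delN12 at day 9 (50.6). None of these lay over its start. Ovol2 (chr2:144305175-144332146, minus strand) had a peak over its start with SALL4-delN12 at day 11 (58.9). Its highest ATAC-seq peak within 2 kb was in MEFs (86.6).

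CUT&Tag at day 6, from replicates that the authors merged before calling, listed SALL4 peaks at 6 of 10 members in SALL4-WT cells, against 51.5% of promoters, and at 2 of 10 in SALL4-delN12 cells, against 38.5%. H3K27ac, a mark of active promoters and enhancers, was listed at 3 members with SALL4-WT, against 47.5%, and at 6 with SALL4-delN12, against 56.7%. The H3K27ac lists held 19841 and 45599 peaks, so that the count over all promoters moved the same way. Krt19 had a SALL4 peak in SALL4-WT cells (149.1) and an H3K27ac peak in SALL4-delN12 cells (85.9). Grhl2 had a SALL4 peak with SALL4-WT (81.1) and SALL4-delN12 (113.5). In SALL4-delN12 cells St14 had an H3K27ac peak over its start (140.5), and Ovol2 had one within 2 kb (83.9). Cdh1 had no CUT&Tag peak within 2 kb of its start in these 4 lists. Within the gene and 10 kb to each side, SALL4 had 5 peaks with SALL4-WT (highest 121.1) and 4 with SALL4-delN12 (195.2). H3K27ac had 1 peak there with SALL4-WT (82.0) and 5 with SALL4-delN12 (highest 183.4).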

How the data were processed

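Per the labels and the study's methods, bulk reads were trimmed with Trim Galore 0.6.4, aligned with HISAT2 2.2.1 to mm10 and quantified with StringTie 2.2.1, and the authors deposited FPKM values. The authors also deposited raw UMI counts per cell (STARsolo, Scanpy) with cell types, and peak lists with a MACS 1.4.2 score (Bowtie2 2.4.5, SAMtools 1.16.1). Of the single-cell columns, 10749 belong to other work and were not used. Fragment totals are not in the FPKM files, and relative depth was read from the steps of low values. Differences of log2(FPKM + 1) were taken among genes with at least 1 FPKM in either library. UMIs were summed by library and type, with exact Poisson intervals that cover counting error only, and cells were thinned to 4000 UMIs for shares. Doublets were not called here, since the deposited cells carry the authors' types. Peaks were assigned within 2 kb of GENCODE M21 gene ends. Python 3.11.15, pandas 2.3.3 and scipy 1.17.1 were used. The differences between libraries, the thinning, the intervals and the overlap of peaks with start sites were tested on simulated data, and the other steps were not. With 1 sample per condition no test was run, so results are differences between libraries. The 10 members and the other lists were chosen with earlier results of these data known. All members were named, with at most the 4 largest differences of each other list and the 5 genes most alike. Alternatives were the pseudocount, the filter on low values, scaling, the level of a first day, peak score and distance, cell types by markers, and thinning.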

Additional observations from a re-analysis of the deposited data

Results flagged for a closer look

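Some differences between BMP4+ and BMP4- at day 7 had opposite signs in different factor sets, on the log2(FPKM + 1) scale. With 1 library per condition the difference was not tested in any of these cases. Col1a1 was higher with BMP4 by 4.10 in JGES and by 1.15 in JGESO, and differed by -1.20 in JGE. Col1a2 was higher by 3.71 in JGES and differed by -1.60 in JGE and -1.13 in JGEO. Acta2 was higher by 1.11 in JGESO and differed by -1.44 in JGE. Krt7, the only epithelial gene among them, was higher by 1.13 in JGES and differed by -1.44 in JGE. No member passed 1 unit in opposite directions in 2 sets on this scale, but Grhl2, at 0.84 in JGE, 0.88 in JGEO and -0.85 in JGES, did with a pseudocount of 0.1 (1.39, 1.3 and -1.21).

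In single cells, the ratio of BMP4+ to BMP4- CPM of Cdh1 was 0.569 in PrECLCs and 1.98 in intermediate cells, with counting intervals that did not meet within either type. The difference was not tested, and the BMP4- PrECLCs number 142 cells. With types set by marker genes, Cdh1 in PrECLCs stood at 23.5 CPM with and 29.2 CPM without BMP4, the latter from 126 cells. After thinning, a Cdh1 UMI was seen in 8.64% (7.54 to 9.85) of BMP4+ PrECLCs. The share in BMP4- PrECLCs was 10.6% (6.03 to 16.8), an interval that overlaps the first.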

How the results depend on the processing

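No paired analysis was run. Each condition has 1 sample, and the replicate label is shared only by the 2 single-cell libraries. The JGES arms, and the SALL4 forms, could have been paired by day, which was not done. No difference of 1 unit or more turned its direction, and scaling turned the sign of 2 differences near 0 (Spint1 with BMP4 at day 7, St14 at day 3). With a pseudocount of 0.1, 2 members were lower with BMP4 in JGES at day 7 (1 with a pseudocount of 1), 1 was higher (Grhl2) and 1 lower (St14) in JGE (0 and 0), 3 were higher in JGEO (Krt19, Spint1, Grhl2; 1), and 1 (Grhl2) was lower in JGESO than in JGES (0). Scaling to the same median ratio left 0 members lower with BMP4 at day 7 and 2 at day 3, 8 higher in BMP4- at day 7 than at day 0, and 9 higher in JGESO than in JGEO. With 1 FPKM as the mark of a first day, 7, 8 and 10 members had passed it by days 1, 3 and 5 in BMP4- and 7 by day 3 in BMP4+. With a peak score of at least 100, members with a promoter peak numbered 2 in MEFs, against 61.4% of all promoters. They numbered 1, 3 and 3 with SALL4-WT at days 1, 9 and 11, against 51.5%, 57.4% and 58.6%. With SALL4-delN12 at days 1, 5, 9 and 11 they were 0, 1, 2 and 6, against 50.6%, 51.9%, 55.2% and 55.1%. For SALL4 in SALL4-WT and SALL4-delN12 cells they were 3 and 1, against 38.6% and 25.9%, and for H3K27ac 0 and 3, against 38.0% and 51.0%. Within 1 kb, 2 had a peak with SALL4-delN12 at day 5, against 56.4%, and 1 for SALL4 in SALL4-delN12 cells, against 35.3%. Types set by marker genes instead of the authors' labels left 3 members, not 7, highest in BMP4- PrECLCs, and 6 with classes of at least 50 cells, chosen after seeing the data, which leaves out a class of 5 cells. Start sites of all basic transcripts, an alternative chosen after seeing the data, left 13 of 13 peak counts within 1.5 times. Of CPM values taken as a mean over cells, 63 of 80 moved less than their counting interval. Without a filter on low values, 20 of 36 shares of all genes past 1 unit moved by over 1.5 times, each downward, and with a filter of 5 FPKM 2 of 36 did. The cause of these changes was not tested. Depth limits the low members, since SALL4-alone libraries held 5.03 to 6.55 times the fragments of JGES day 0.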
